A study of Mus musculus with 4 samples.

Results

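The cell cycle genes measured here are a listed set of 33 genes whose transcripts mark dividing cells: 10 act mainly around DNA replication (S-phase members), 22 act mainly from G2 to the end of mitosis (mitotic members), and Stmn1 is kept apart. They were chosen by name, and all 33 were found among 29245 gene columns of UMI counts (counts of distinct tagged transcripts) per chip well. The wells came from hearts of 2 Mst1/2-deficient mice (KO1 and KO2) and 2 wild-type mice (WT1 and WT2), all on the C57BL/6 strain. Low-speed centrifugation had parted each heart into a non-cardiomyocyte (NCM) and a cardiomyocyte (CM) fraction, and each of the 4 chips held 1 genotype and 1 fraction. Chip and genotype therefore cannot be told apart within a fraction, and chip and fraction cannot be told apart within a genotype. The labels do not give the alleles, the cells in which the kinase genes were deleted, the age of the mice or any injury or drug.

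Cells that divide pass through DNA replication in S phase and then through G2 and mitosis, and each stage has its own transcripts. MST1 and MST2 are the kinases of the Hippo pathway, which is known for limiting organ growth and, in the heart, the division of cardiomyocytes. Most adult mouse cardiomyocytes do not divide, while fibroblasts, endothelial cells and macrophages of the heart can. The S-phase members hold 4 subunits of the MCM helicase, which opens DNA at replication origins (Mcm2, Mcm3, Mcm5 and Mcm6), and Pcna, the clamp that keeps polymerase on DNA. Rrm1 and Rrm2 make up ribonucleotide reductase and Tyms is thymidylate synthase, which supply nucleotides, and Ccne1 and Ccne2 are the E cyclins of the step into S phase. The mitotic members hold the kinases Cdk1, Plk1, Aurka, Aurkb, Bub1 and Bub1b, the cyclins Ccna2, Ccnb1 and Ccnb2, and Cdc20 and Ube2c, which serve the ubiquitin ligase that ends mitosis. They also hold the kinetochore proteins Cenpa, Cenpe and Cenpf, the spindle proteins Tpx2, Kif11, Kif20a, Nusap1 and Prc1, and Birc5, a subunit of the chromosomal passenger complex. Mki67, the proliferation marker Ki-67, and Top2a, the topoisomerase that untangles sister DNA, complete the set. Stmn1 is a microtubule destabilizer that is also present in cells that do not divide.

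The promoters of the mitotic and S-phase members differ in short motifs, and 5 of them are printed to show this. In the textbook account, CHR and CCAAT elements bind the complexes that time G2 and mitotic genes, and E2F sites time S-phase genes. RefSeq windows of 300 bases, from 250 before to 50 after the start, matched 27 of the 33 members. Ccnb2 (cyclin B2, chr9:70421505-70421804, minus strand), Cenpa (the centromeric histone, chr5:30666636-30666935, plus strand) and Cdk1 (the mitotic kinase, chr10:69352863-69353162, minus strand) stand for the mitotic members. Mcm6 (chr1:128359656-128359955, minus strand) and Mcm5 (chr8:75109259-75109558, plus strand) stand for the S-phase members. Coordinates are on GRCm38.p6, sequences read from 5′ to 3′ on the gene's strand, and capitals mark every match on either strand to CHR (TTTGAA or TTCGAA), to CCAAT or to the E2F core (TTCCCGC or TTGGCGC or TTCGCGC).
Ccnb2: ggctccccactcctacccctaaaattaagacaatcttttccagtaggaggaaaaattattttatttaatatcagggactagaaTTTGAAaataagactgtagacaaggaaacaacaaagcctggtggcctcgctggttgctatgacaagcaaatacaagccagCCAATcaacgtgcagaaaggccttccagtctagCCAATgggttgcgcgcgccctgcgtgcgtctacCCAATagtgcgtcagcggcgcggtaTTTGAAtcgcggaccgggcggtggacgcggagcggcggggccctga
Cenpa: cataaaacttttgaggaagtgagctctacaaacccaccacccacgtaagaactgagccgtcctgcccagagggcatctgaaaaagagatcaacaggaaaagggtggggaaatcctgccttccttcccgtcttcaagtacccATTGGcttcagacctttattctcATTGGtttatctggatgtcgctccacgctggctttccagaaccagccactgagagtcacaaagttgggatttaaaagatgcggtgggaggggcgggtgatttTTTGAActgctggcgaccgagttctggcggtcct
Cdk1: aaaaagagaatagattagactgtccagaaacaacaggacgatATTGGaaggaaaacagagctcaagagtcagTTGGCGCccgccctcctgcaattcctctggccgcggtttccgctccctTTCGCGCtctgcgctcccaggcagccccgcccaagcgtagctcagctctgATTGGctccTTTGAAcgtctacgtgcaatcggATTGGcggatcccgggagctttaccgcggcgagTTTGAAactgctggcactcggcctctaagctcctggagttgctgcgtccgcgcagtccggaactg
Mcm6: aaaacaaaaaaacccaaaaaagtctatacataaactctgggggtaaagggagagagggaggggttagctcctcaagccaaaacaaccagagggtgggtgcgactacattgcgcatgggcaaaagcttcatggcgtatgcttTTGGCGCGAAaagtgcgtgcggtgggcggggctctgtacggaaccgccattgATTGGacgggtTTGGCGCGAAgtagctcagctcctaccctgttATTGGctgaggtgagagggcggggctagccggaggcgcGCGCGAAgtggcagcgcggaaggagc
Mcm5: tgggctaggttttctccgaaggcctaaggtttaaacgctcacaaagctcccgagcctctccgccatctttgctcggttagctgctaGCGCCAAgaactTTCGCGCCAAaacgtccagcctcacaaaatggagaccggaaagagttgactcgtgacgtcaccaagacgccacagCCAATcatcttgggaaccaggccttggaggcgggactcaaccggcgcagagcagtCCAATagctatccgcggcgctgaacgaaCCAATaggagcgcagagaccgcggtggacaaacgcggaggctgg

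A CHR match lay in 14 of 18 mitotic promoters and in 1 of 9 S-phase promoters, that of Mcm2, while 19.4% of all 27025 promoters held one. CCAAT lay in 16 of 18 mitotic and 7 of 9 S-phase promoters, against 37.9% of all promoters. Both motifs stood together in 14 mitotic promoters, against 7.70% of all promoters. An E2F core lay in 3 of 18 mitotic and 4 of 9 S-phase promoters, against 8.21% of all promoters, and it can share bases with CCAAT, as in Ccnb1, or with another core, as in Mcm5 and Mcm6. Mcm6 held 5 E2F cores and Mcm5 held 3, and neither held a CHR match. Cdk1 held motifs of all kinds: 2 CHR, 3 CCAAT and 2 E2F cores. These matches are letters in a window and not measured binding.

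Every result below rests on 3990 kept wells, those with at least 10000 UMIs and 300 detected genes. The NCM fraction gave 715 and 747 wells from KO1 and KO2, against 692 and 703 from WT1 and WT2. The CM fraction gave 264 and 385 wells from KO1 and KO2, against 210 and 274 from WT1 and WT2. Mitochondrial transcripts took 58.1 and 36.5% of NCM UMIs in KO1 and KO2, against 7.45 and 11.2% in WT1 and WT2. In the CM fraction that share was 47.2 and 36.4% in KO1 and KO2, against 38.1 and 35.7% in WT1 and WT2. Levels are therefore given as CPM, the UMIs of a gene per 1000000 UMIs outside mt-, Hba- and Hbb- genes, and are not corrected for gene length. The median well held 24379 and 43941 such UMIs in the NCM fraction of KO1 and KO2, against 53343 and 62963 in WT1 and WT2. Of 3017 distinct barcodes among the kept wells, 856 occurred on more than 1 chip, as the same barcodes were used on each, so a well was identified by chip and barcode. In 20 negative control wells, 3 of 5910 UMIs were from members (835 CPM, resting on 3 UMIs), too few for any well to hold 5 members. In 20 positive control wells, 9 of 4564 UMIs were from members (3212 CPM). The 285 animal wells that were not kept had 1243 CPM of members, and 10 of them held at least 5.

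Transcripts of the members were thinly spread in most wells and dense in few. S-phase members were detected (at least 1 UMI) in 138 wells (Ccne1) to 1456 wells (Pcna), with a median over the 10 genes of 587. Mitotic members were detected in 30 wells (Kif20a) to 1323 wells (Mki67), with a median over the 22 genes of 434.5. The lowest member sum was 445 UMIs for Kif20a, the kinesin of late mitosis, and 150 of these lay in 1 well. No member was detected in 218 wells (5.46%), and 1 to 4 members in 2262 wells (56.7%). At least 5 members were detected in 1510 wells (37.8%), of which 889 held 5 to 7, 385 held 8 to 11, 155 held 12 to 19 and 81 held 20 or more. The fullest well held 32 of 33 members.

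**Figure D1:**
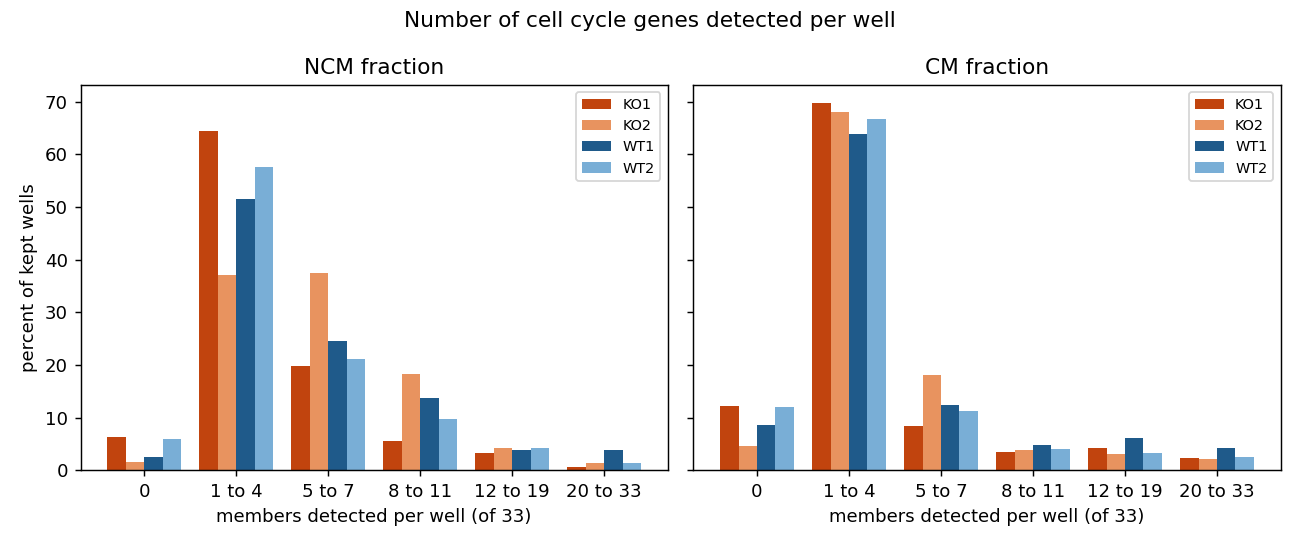
Bars give the percent of kept wells (vertical axis) by the number of members detected of 33 (horizontal axis), for the NCM fraction on the left and the CM fraction on the right, with 1 bar for each animal (KO1, KO2, WT1 and WT2). In both fractions and in 7 of the 8 sets of wells 1 to 4 members was the most common class; KO2 NCM wells held 5 to 7 members about as often, and wells with 12 or more are the short bars on the right.

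The 236 wells with 12 or more members held 60.0% of the mitotic UMIs over all animals, with less in KO than in WT animals. The limit of 12 was chosen after the counts per well had been seen; 48 wells held 11 members and 41 held 12. The 236 wells past it were 5.91% of the kept wells and held 19.4% of all UMIs outside mt-, Hba- and Hbb- genes, with 45.2% of the S-phase UMIs. Of mitotic UMIs they held 36.7 and 40.7% in the NCM fraction of KO1 and KO2, against 68.0 and 69.1% in WT1 and WT2. In the CM fraction they held 53.8 and 57.0% in KO1 and KO2, against 77.1 and 73.0% in WT1 and WT2. Their share of all UMIs outside mt-, Hba- and Hbb- genes differed too. In NCM it was 9.78 and 15.9% in KO1 and KO2, against 28.9 and 26.3% in WT1 and WT2. In CM it was 20.6 and 5.64%, against 21.4 and 11.1%, and the genotypes overlapped. The part of that share in the mitotic values was not tested. Single mitotic members had 43.2% (Mki67) to 78.0% (Bub1) of their UMIs there, and single S-phase members 32.8% (Pcna) to 62.3% (Rrm2). The kinase Bub1, which guards chromosome attachment, was detected in 28.0% of these wells and in 1.9% of the other wells. Pcna was detected in 79.7% of them and in 33.8% of the others, and Mki67 in 86.0 and 29.8%. Stmn1 was detected in 90.3% of them and in 23.5% of the others. All these values describe the wells by the genes that chose them, so no test applies.

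The densest wells were also the deepest. They had a median of 225734.5 UMIs and 4487 genes, against 88157 UMIs and 2279 genes in the other wells. After each well had been thinned to 10000 UMIs outside those genes, 196 of the 234 that were deep enough still held at least 5 members (83.8%). Of all wells, 474 held at least 5 members after thinning, and 278 of those had fewer than 12 before it. Scrublet marked 1 of the 236 wells as a doublet, of 33 marked in all.

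The wells with 12 or more members mostly held genes of both stages, which the choice of wells by the sum of both favours. The 236 wells held a median of 5 of 10 S-phase members and 11 of 22 mitotic members. Summed mitotic UMIs (22 genes) exceeded summed S-phase UMIs (10 genes) in 173 wells. The S-phase sum was the greater in 62, and in 1 well both were equal. The sums were not scaled for the number of genes. In 11 of the wells fewer than 2 S-phase members were detected. By animal, the S-phase sum was the greater in 8 of 27 and 7 of 41 NCM wells of KO1 and KO2. In WT1 and WT2 it was so in 18 of 53 and 13 of 40. In the CM fraction it was the greater in 3 of 17 and 5 of 20 wells of KO1 and KO2, against 5 of 22 and 3 of 16 of WT1 and WT2.

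**Figure D2:**
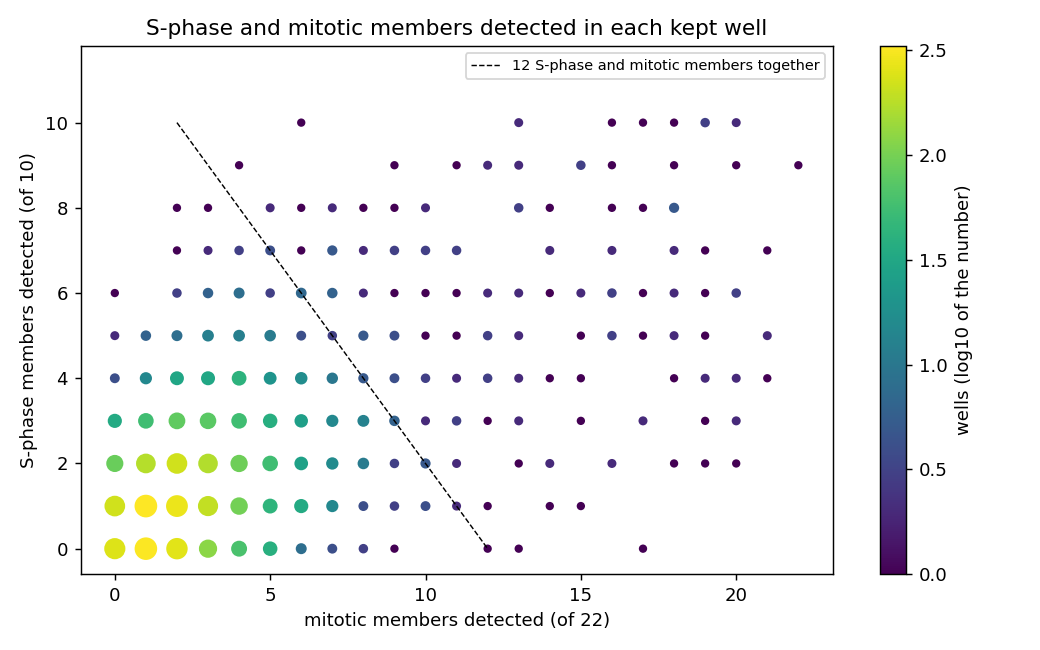
Each point is a pair of counts, the mitotic members detected in a well (of 22, horizontal axis) and the S-phase members detected (of 10, vertical axis), and its size and colour give how many kept wells share that pair (log10 scale). Most wells lie at the lower left, and wells past the dashed line (12 S-phase and mitotic members together) spread over a wide range of both counts, with a median of 5 S-phase and 11 mitotic members in the 236 wells with 12 or more members.

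Wells with 12 or more members were found mainly in fibroblast-like, macrophage-like and vascular endothelial-like wells. Classes were named from marker genes after clustering without the members and related genes. Over all animals, 97 of 617 fibroblast-like wells held 12 or more (15.7%, exact Clopper-Pearson 95% interval 12.9 to 18.8). So did 46 of 398 macrophage-like wells (11.6%, 8.59 to 15.1) and 42 of 472 vascular endothelial-like wells (8.90%, 6.49 to 11.84). Among cardiomyocyte-like wells 17 of 1021 did (1.67%, 0.973 to 2.65), among erythroid-like wells 7 of 193 (3.63%), among wells without a name 20 of 970 (2.06%) and among lymphatic endothelial-like wells 2 of 12. Of 64 dendritic or class II-high-like wells 4 did (6.25%, 1.73 to 15.2), and of 55 endocardial-like wells 1. No neutrophil-like well did (0 of 146, which allows a share of up to 2.05% at 3 counts of the total), nor any pericyte-like well (0 of 42, which allows up to 7.14%); the exact intervals reach 2.49 and 8.41%. These limits cover counting error only, and since the limit of 12 was chosen with these counts known, the fullest neutrophil-like well, with 11 members, lies just below it. Median depth differed by class, from 32737 UMIs in erythroid-like and 46664.5 in neutrophil-like wells to 90551 in fibroblast-like and 110405 in macrophage-like wells, and its part in these shares was not tested.

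In single animals the shares varied. Of NCM fibroblast-like wells 8.85 and 11.2% held 12 or more members in KO1 and KO2, against 20.4 and 11.5% in WT1 and WT2. Of NCM macrophage-like wells it was 10.8 and 14.3% in KO1 and KO2, against 9.90 and 12% in WT1 and WT2. The fibroblast-like shares of WT1 stood above those of the other animals, and the macrophage-like shares of both genotypes overlapped. The fibroblast-like wells that remained in the CM fraction (18 and 17 in KO1 and KO2, against 21 and 32 in WT1 and WT2) gave the highest shares among sets with at least 10 wells, 33.3 and 29.4% in KO1 and KO2, against 38.1 and 21.9% in WT1 and WT2. Vascular endothelial-like wells of the CM fraction gave 8 and 11.84% in KO1 and KO2, against 19.4 and 8.11% in WT1 and WT2.

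**Figure D3:**
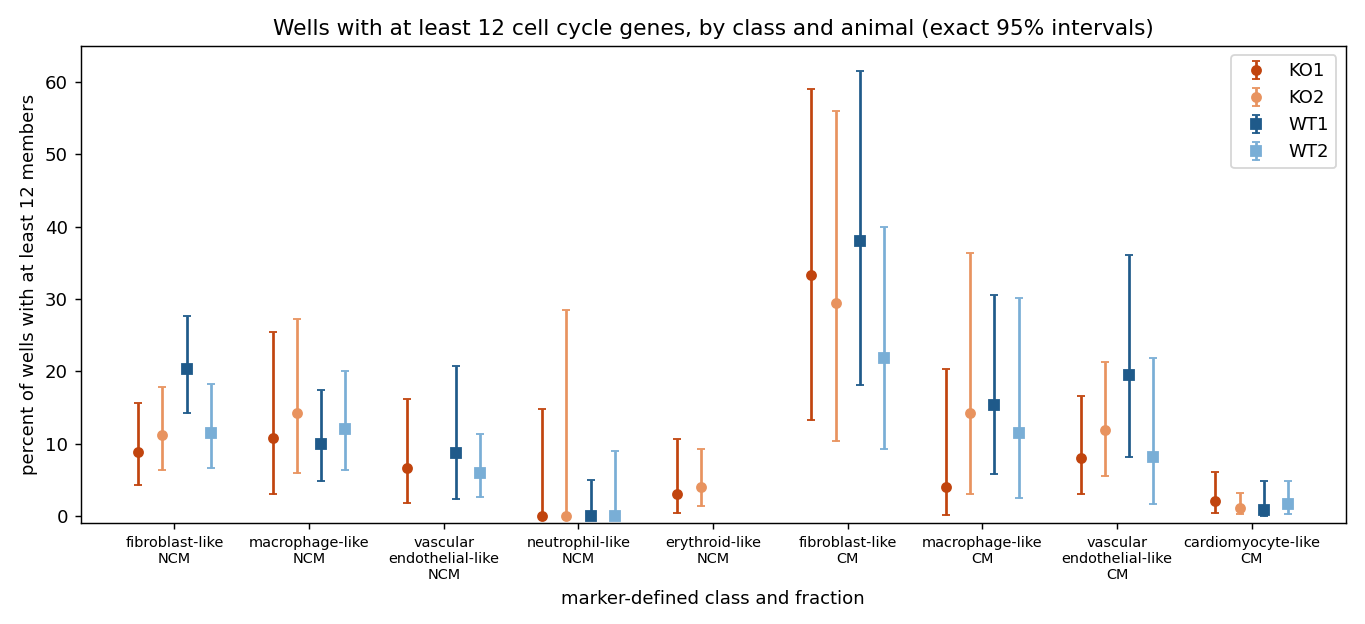
Points give the percent of wells with at least 12 members (vertical axis) by class and fraction (horizontal axis) for KO1, KO2, WT1 and WT2, and bars are exact 95% binomial intervals; sets with fewer than 10 wells are not drawn. Fibroblast-like wells of the CM fraction lie highest (21.9 to 38.1%), neutrophil-like wells lie at 0, and cardiomyocyte-like wells of the CM fraction lie between 0.885 and 2.13%.

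One cardiomyocyte-like cluster, number 3 with 318 wells, came mainly from the NCM fraction of KO2 (250 wells) and had Saa3 and Marco, which cardiomyocytes are not known for, beside Ttn and Myl3 among its leading genes. Counts of cardiomyocyte-like wells are therefore given for the CM fraction alone below. There, wells rarely held a broad set of division genes. There were 10 cardiomyocyte-like wells with 12 or more members among 701, namely 2.13 and 1.11% of wells in KO1 and KO2, against 0.885 and 1.69% in WT1 and WT2, so the genotypes overlapped. The sum of 14 cardiomyocyte markers had a median of 74645 CPM in the 10 wells (8194 to 118492), against 90080 in the other 691 (14478 to 162044), and 1 KO1 well lay below every other well. Markers of other cells were also present, and within animals they went both ways. Vascular endothelial markers had a median of 1768 and 1121 CPM in such wells of KO1 and KO2 and of 646 and 1750 CPM in those of WT1 and WT2, against 1200, 852, 736 and 918 CPM in the other wells of the same 4 animals. Macrophage markers had 568, 913, 992 and 4713 CPM in such wells, against 1884, 178, 1101 and 298 CPM in the others, so KO1 and WT1 were lower and KO2 and WT2 higher. Fibroblast markers had 1800, 411, 41.3 and 199 CPM, against 1057, 231, 588 and 176 CPM in the others. WT1 gave 1 such well, and the other animals 3 each. Of 12 fibroblast markers, 2 were at 0 in all 10 wells, as was 1 of 12 macrophage markers. The 10 wells held a median of 182950.5 UMIs, against 135823 in the others, and 1 was marked as a doublet. The part of RNA from other cells or of joined cells in these wells was not tested.

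The milder limit of 5 members gave shares that varied between animals of 1 genotype and did not follow the order of median depth in the NCM fraction. At least 5 members were detected in 29.2 and 61.3% of NCM wells of KO1 and KO2, against 46.0 and 36.4% of WT1 and WT2. After thinning to 10000 UMIs the shares were 12.5 and 24.6% in KO1 and KO2, against 12.3 and 5.56% in WT1 and WT2. Wells with fewer than 10000 UMIs outside mt-, Hba- and Hbb- genes could not be thinned and left the share. They were 106 of 715 and 51 of 747 NCM wells in KO1 and KO2, against 23 of 692 and 38 of 703 in WT1 and WT2. KO1 was lowest before thinning and KO2 was highest both times. In the CM fraction the shares were 18.2 and 27.3% in KO1 and KO2, against 27.6 and 21.2% in WT1 and WT2, and 13.8 and 7.83%, against 12.6 and 7.22%, after thinning. The genotypes overlapped in the CM fraction both times and in the NCM fraction before thinning. After thinning both KO animals lay above both WT animals in the NCM fraction, though the exact 95% binomial interval of KO1 (9.96 to 15.4%) held the WT1 value. That interval covers counting error over wells only, and not the spread between animals.

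Part of the transcripts lay in wells whose class should lack them. Neutrophils leave the bone marrow as cells that no longer divide, and 26.1 and 36.4% of NCM neutrophil-like wells of KO1 and KO2 held at least 5 members, against 34.2 and 20.5% of WT1 and WT2. Shares of NCM fibroblast-like wells were 42.5 and 65.7% in KO1 and KO2, against 69.7 and 43.1% in WT1 and WT2. With wells thinned to 10000 UMIs, neutrophil-like shares were 9.52 and 0.0% in KO1 and KO2, against 8.57 and 2.86% in WT1 and WT2. Thinned fibroblast-like shares were 23.9 and 19.7% in KO1 and KO2, against 20.5 and 8.59% in WT1 and WT2, above the neutrophil-like share in each animal. Mitotic members summed to 747 and 444 CPM in neutrophil-like wells of KO1 and KO2, against 1107 and 870 in those of WT1 and WT2. The largest part of the WT1 value was Mki67 at 639 CPM. In each animal 5 wells held most of these UMIs, 77.8 and 97.1% in KO1 and KO2, against 56.4 and 94.4% in WT1 and WT2. The class held 23 and 11 NCM wells in KO1 and KO2, against 73 and 39 in WT1 and WT2. In fibroblast-like wells below 12 members the mitotic sum was 450 and 432 CPM in KO1 and KO2, against 210 and 144 in WT1 and WT2. A share at the limit of 5 that is no higher than that of neutrophil-like wells is not read here as expression, and classes are compared at the limit of 12. The source of the transcripts in neutrophil-like wells was not tested.

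Levels of the S-phase members in the NCM fraction tended to lie higher in KO animals, and no gene passed the test. In sums over all NCM wells, S-phase members reached 687 and 531 CPM in KO1 and KO2, against 471 and 320 in WT1 and WT2. Mitotic members reached 929 and 1072 CPM in KO1 and KO2, against 1198 and 763 in WT1 and WT2. The S-phase sums of the genotypes did not overlap, and the mitotic sums did. In NCM wells below 12 members neither sum overlapped. There S-phase members had 579 and 430 CPM in KO1 and KO2, against 260 and 226 in WT1 and WT2. Mitotic members had 652 and 756 CPM in those wells of KO1 and KO2, against 539 and 319 in WT1 and WT2. On the base of all UMIs, with mitochondrial and haemoglobin genes included, the S-phase sums were 257 and 274 per 1000000 UMIs in KO1 and KO2, against 430 and 273 in WT1 and WT2. The genotypes then overlapped, and the mean lay lower in KO. In such sums, fewer cells of a type and less RNA per cell cannot be told apart.

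Among S-phase members, Mcm6 (chr1:128331590-128359664) had 126 and 75.9 CPM in KO1 and KO2, against 52.8 and 20.6 in WT1 and WT2. Mcm5 had 58.4 and 51.4 CPM in KO1 and KO2, against 27.2 and 18.8 in WT1 and WT2. Rrm1, the large subunit of ribonucleotide reductase, had 105 and 88.9 CPM in KO1 and KO2, against 56.4 and 31.5 in WT1 and WT2. All 3 had both KO animals above both WT animals. The fitted log2 folds (KO over WT) were 1.29 for Mcm6 (SE 0.48), 1.09 for Mcm5 (SE 0.33) and 0.98 for Rrm1 (SE 0.34), and Mcm2 had 1.19 (SE 0.49). Their adjusted p values in edgeR's quasi-likelihood test were 0.386, 0.343, 0.379 and 0.414.

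Both KO animals lay above both WT animals for 6 of 10 S-phase members (Mcm2, Mcm3, Mcm5, Mcm6, Pcna and Rrm1) and below for 1 (Tyms), while 26.9% of all 17216 genes lay above and 18.3% below. Of 22 mitotic members, 4 lay above (Top2a, Ccna2, Nusap1 and Prc1) and 3 below (Cdk1, Cdc20 and Cenpa), and 15 overlapped. The S-phase share with KO above was greater than the background share, and the mitotic shares in both directions were not. The median log2 fold was 0.59 over S-phase members, -0.14 over mitotic members and -0.01 over all genes. The mitotic median turned to 0.45 with thinned wells, 0.42 in wells under 30% mitochondrial UMIs and 0.40 without WT1, while the S-phase median stayed above 0 in these, at 0.82, 1.39 and 0.86. Under 30% mitochondrial UMIs, 18 and 160 NCM wells of KO1 and KO2 remained, against 645 and 570 of WT1 and WT2.

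Cenpa (chr5:30666777-30674830), the histone variant that marks centromeres, lay lower in both KO animals. It had 44.2 and 50.8 CPM in KO1 and KO2, against 96.3 and 90.3 in WT1 and WT2. The fold was -1.13 (SE 0.27), with an adjusted p of 0.339 in edgeR's test. Tyms had 81.8 and 93.5 CPM in KO1 and KO2, against 132 and 105 in WT1 and WT2, also lower in both KO animals. No gene at all passed in the NCM fraction (0.0% of genes called), where 5 members and 12.1% of all genes had an unadjusted p under 0.05. DESeq2 called 1 member, Cenpa (adjusted p = 0.0389), among 332 genes higher and 247 lower (3.65%), and the adjusted p of Cenpa ran from 0.0389 to 0.694 over the alternatives.

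The NCM chips also differed in other values, some of which overlapped between genotypes. Mitochondrial shares and depths are given above, and haemoglobin took 4.48 and 11.96% of NCM UMIs in KO1 and KO2, against 1.19 and 3.42% in WT1 and WT2. The 12 macrophage markers summed to 6147 and 6922 CPM in KO1 and KO2, against 11139 and 13127 in WT1 and WT2. The 12 fibroblast markers summed to 13985 and 14985 CPM in KO1 and KO2, against 18952 and 14864 in WT1 and WT2. The 12 vascular endothelial markers summed to 8400 and 4404 CPM in KO1 and KO2, against 2414 and 5156 in WT1 and WT2. For fibroblast and vascular endothelial markers the genotypes overlapped. The part of all these differences in the member levels was not tested.

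**Figure D4:**
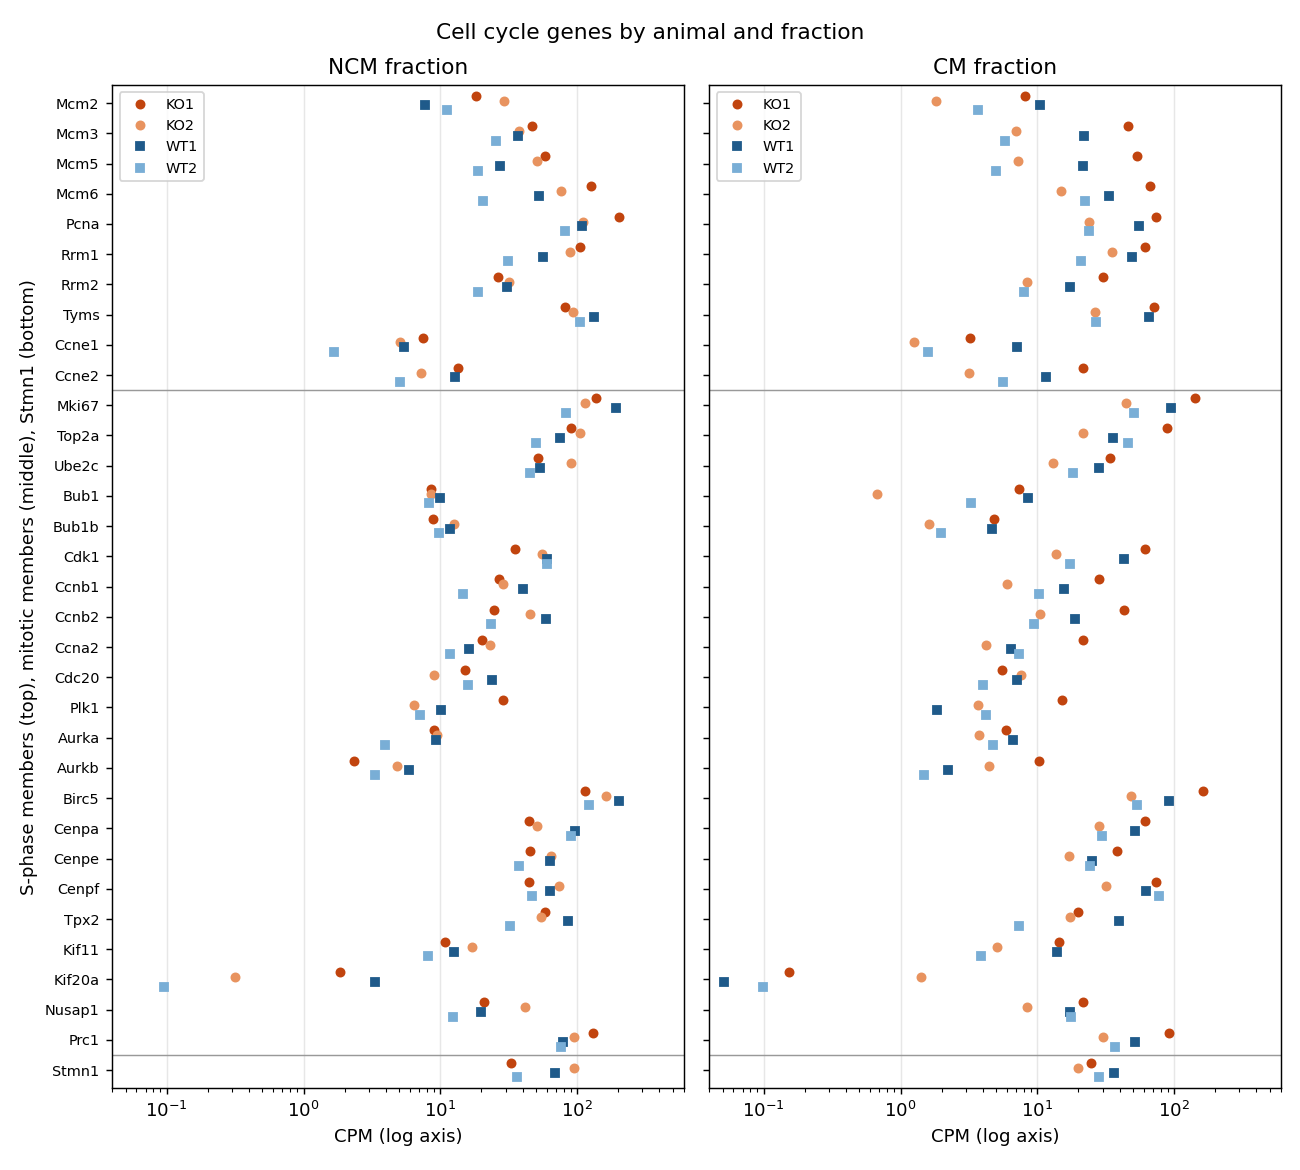
Levels in CPM, outside mitochondrial and haemoglobin genes (horizontal, log axis), are drawn for each member (rows) in the NCM fraction (left) and the CM fraction (right), with circles for KO1 and KO2 and squares for WT1 and WT2. In the NCM panel the circles lie right of the squares for Mcm2, Mcm3, Mcm5, Mcm6, Pcna, Rrm1, Top2a, Ccna2, Nusap1 and Prc1 and left of them for Tyms, Cdk1, Cdc20 and Cenpa; in the CM panel KO1 lies rightmost for most members.

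Within NCM classes the S-phase members did not move alike. In fibroblast-like wells their sums overlapped, at 506 and 457 CPM in KO1 and KO2, against 480 and 445 CPM in WT1 and WT2. Below 12 members the sums did not overlap, at 386 and 391 CPM in KO1 and KO2, against 167 and 197 in WT1 and WT2. With all fibroblast-like NCM wells, 5 of 10 members had a log2 fold above 0. The median was -0.0084, against 0.0048 over all genes, with -0.15 for Mcm5 and -0.42 for Mcm2. Mcm6 had 97.3 and 106 CPM in KO1 and KO2, against 38.8 and 29.9 in WT1 and WT2. Cenpa had 55.7 and 44.0 CPM in KO1 and KO2, against 122 and 109 in WT1 and WT2, and Tyms had 77.4 and 111 in KO1 and KO2, against 185 and 188 in WT1 and WT2. None of these groups overlapped. The share of all genes without overlap was not counted within classes. Over all NCM wells, both KO animals lay above both WT animals for 26.9% of genes and below for 18.3%. The log2 folds of Mcm6, Cenpa and Tyms in fibroblast-like wells were 1.4 (SE 0.38), -1.38 (SE 0.34) and -1.14 (SE 0.34). The adjusted p was 0.40 each in edgeR's test, where 0.0% of 14293 genes were called. At an unadjusted p under 0.05, 3 members and 10.6% of all genes passed, and DESeq2 called 2 members, Cenpa and Mcm6, and 3.17% of all genes.

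In macrophage-like wells S-phase members summed to 993 and 634 CPM in KO1 and KO2, against 412 and 210 CPM in WT1 and WT2. In each animal 5 wells held much of these UMIs, 65.2 and 76.7% in KO1 and KO2, against 58.1 and 35.2% in WT1 and WT2. Below 12 members the sums were 769 and 182 CPM in KO1 and KO2, against 201 and 196 in WT1 and WT2, and the genotypes overlapped. With all macrophage-like NCM wells, 9 of 10 S-phase members had a log2 fold above 0. Their median was 1.5, against -0.02 over all genes, and the 21 mitotic members tested had a median of -0.51. Mcm5 had 150 and 130 CPM in KO1 and KO2, against 27.9 and 29.0 in WT1 and WT2. Mcm2 had 38.9 and 102 CPM in KO1 and KO2, against 6.29 and 0.263 in WT1 and WT2. The genotypes did not overlap for either helicase subunit, and the share of all genes without overlap was not counted in these wells. The Mcm2 values rest on 95 and 840 UMIs in KO1 and KO2, against 118 and 7 in WT1 and WT2. The log2 folds were 2.19 (SE 0.51) and 4.44 (SE 1.51), with an adjusted p of 0.473 in edgeR's test, where 0.0% of 12258 genes were called. At an unadjusted p under 0.05, 2 members and 9.59% of all genes passed, and DESeq2 called both Mcm5 and Mcm2 and 3.81% of all genes. These macrophage-like sums rest on 37 and 49 wells of KO1 and KO2, against 101 and 100 of WT1 and WT2.

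In the CM fraction the KO animals differed from each other more than the genotypes did in the member sums. S-phase members reached 436 and 129 CPM in KO1 and KO2, against 295 and 123 in WT1 and WT2. Mitotic members reached 952 and 323 CPM in KO1 and KO2, against 627 and 430 in WT1 and WT2. KO1 was highest and the genotypes overlapped for both sums. All 10 S-phase members overlapped. Of 22 mitotic members only Aurkb and Kif20a had both KO animals above both WT animals, and the Kif20a values rest on 2 and 82 UMIs in KO1 and KO2, against 1 and 3 in WT1 and WT2. Stmn1 had both KO animals below. Of all genes 15.8% lay above and 12.7% below. No member of 32 tested had an unadjusted p under 0.05 in edgeR's test, against 3.44% of 14462 genes, and 0.0% were called; DESeq2 called 0 members and 0.338% of all genes. KO1 also had the lowest sum of the 14 cardiomyocyte markers, 35172 CPM, with 85643 in KO2, against 62354 and 84998 in WT1 and WT2.

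In cardiomyocyte-like wells of the CM fraction, a comparison added after the data were seen, Mki67 (chr7:135689784-135716361) had 70.9 and 27.0 CPM in KO1 and KO2, against 6.6 and 12.4 in WT1 and WT2. The genotypes did not overlap, and the share of all genes without overlap was not counted in these wells. The log2 fold of Mki67 was 2.06 (SE 0.64), with an adjusted p of 0.931 in edgeR's test, where 0.0% of 12349 genes were called. Of all genes 5.0% had an unadjusted p under 0.05, as did 2 members, Mki67 and Ccne2. Ccne2 went the other way, lower in KO, with a log2 fold of -3.00. In wells under 30% mitochondrial UMIs the fold of Mki67 was -1.99. That fit used 4 and 26 wells of KO1 and KO2, against 33 and 63 of WT1 and WT2. Cluster 0 held 137 and 218 of these wells in KO1 and KO2, against 78 and 92 in WT1 and WT2, and cluster 8 held 4 and 52, against 35 and 84. In vascular endothelial-like wells, also added, 1 member had an unadjusted p under 0.05, against 3.72% of all genes, and 0.0% were called. DESeq2 called 0 members in either class, against 0.825% of all genes in cardiomyocyte-like and 0.402% in vascular endothelial-like wells.

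Over all kept wells 0.0% of 18151 genes were called between genotypes, and 1 member, Cenpa, had an unadjusted p under 0.05, against 9.49% of all genes. No member had a genotype effect that differed between NCM and CM (0.0% of 17509 genes called), and none had an unadjusted p under 0.05 there, against 4.95% of all genes. DESeq2 called 0 members in both comparisons, against 2.53 and 0.767% of all genes.

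Between fractions, Pcna and Tpx2 rose in NCM relative to CM. They were 2 of 33 members, a share near that of all genes called higher (5.92%). Pcna (chr2:132249162-132253314) had 203, 111, 108 and 82.1 CPM in the NCM fraction of KO1, KO2, WT1 and WT2, against 73.7, 23.7, 55.7 and 23.8 in the CM fraction. Tpx2 (chr2:152847964-152895321), which builds the spindle and activates Aurora A, had 58.0, 54.7, 85.2 and 32.2 in the NCM fraction, against 19.9, 17.2, 39.8 and 7.36 in the CM fraction. Both were higher in NCM in all 4 animals. The log2 folds were 1.08 (SE 0.25) for Pcna and 1.08 (SE 0.28) for Tpx2, with adjusted p values of 0.0226 and 0.0343 in edgeR's test with the animal as a block.

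No other member passed, and 5.92% of all 17509 genes were called higher (14.3% in either direction). All 4 animals had the higher value in NCM for 5 of 10 S-phase members, 9 of 22 mitotic members and Stmn1, against 37.9% of all genes. The median log2 fold was 0.46 over the members and 0.28 over all genes. With library totals in place of TMM scaling the median over all genes was 0.81, 6 members passed, and the calls of all genes split into 2896 higher and 1068 lower in place of 1037 and 1459. Neither call held when any 1 animal was left out, with an adjusted p of 0.053 to 0.101 for Pcna and 0.0736 to 0.141 for Tpx2. In wells under 30% mitochondrial UMIs it was 0.249 for Pcna and 0.331 for Tpx2.

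Some genes that restrain the cycle were also higher in the NCM fraction. Of 17 tested inhibitors, 4 rose in NCM, where 5.92% of all genes did: Cdkn1b (p27) with a log2 fold of 1.61 (SE 0.30), Btg1 with 1.54 (SE 0.27), Cdkn1a (p21) with 1.34 (SE 0.35) and Btg2 with 1.15 (SE 0.28). Cdkn1a had 469, 546, 509 and 883 CPM in the NCM fraction of KO1, KO2, WT1 and WT2, against 293, 139, 152 and 103 in the CM fraction. Of 12 G1 cyclins, kinases and E2F genes 1 rose, cyclin D1 (Ccnd1, log2 fold 1.37, SE 0.36), with 214, 184, 105 and 168 CPM in NCM, against 128, 40.8, 36.2 and 18.5 in CM. Of 42 other G2 and mitotic genes 2 rose, the phosphatase Cdc25c (3.26, SE 0.81) and lamin B1 (Lmnb1, 1.53, SE 0.44), and of 24 tested other S-phase genes none did. Adjusted p values of these 7 genes in edgeR's test ran from 0.0058 to 0.0478. None of the 7 calls held in wells under 30% mitochondrial UMIs, where adjusted p ran from 0.121 to 0.429. With 1 animal left out, Btg1 and Cdkn1b passed each time, Cdkn1a, Btg2, Ccnd1 and Cdc25c passed only when it was KO1, and Lmnb1 lost the call whichever animal was left out. Cks2, Foxm1 and Ccnd2 did not pass, with log2 folds of 1.12, 0.76 and -0.06.

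Genes that had no part in choosing the wells separated wells with at least 5 members from the others. Each animal's wells were summed in both sets and compared with the animal as a block; the members themselves chose the sets, and all 33 had higher values, with log2 folds of 1.28 (Mcm6) to 3.19 (Ccne2). Of 42 other G2 and mitotic genes 15 rose and of 24 tested other S-phase genes 5 rose, against 1.03% of all 17823 genes (3.58% in either direction). None of 12 G1 genes and none of 17 tested inhibitors passed in either direction, with 2 and 1 at an unadjusted p under 0.05. Median log2 folds were 1.58 for other G2 and mitotic genes, 1.18 for other S-phase genes, 0.34 for G1 genes, 0.18 for inhibitors and 0.03 for all genes.

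The largest fold was that of Kif2c, a kinesin that takes microtubules apart at centromeres, with 22.9, 7.16, 9.58 and 10.7 CPM in wells with at least 5 members of KO1, KO2, WT1 and WT2, against 2.08, 0.328, 1.10 and 1.68 in the other wells. Spc25, a subunit of the kinetochore's Ndc80 complex, had 109, 54.0, 63.5 and 54.3, against 22.7, 10.01, 13.5 and 10.3. Cdca8 (borealin), a partner of Birc5 in the passenger complex, had 114, 132, 93.5 and 67.0, against 40.7, 7.66, 21.7 and 14.6. All 4 animals had the higher value in the wells with at least 5 members. Log2 folds were 3.30 (SE 0.49) for Kif2c, 2.21 (SE 0.22) for Spc25 and 2.34 (SE 0.36) for Cdca8. Mxd3 (3.14), Cdca3 (2.65) and Kif23 (1.98) followed, and Cks2, which binds Cdk1, had 1.38.

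Of the S-phase genes outside the set, Gins2, part of the replicative helicase, had 14.9, 12.8, 21.1 and 10.9 CPM in wells with at least 5 members, against 6.86, 1.27, 4.02 and 2.60 in the others (log2 fold 2.11, SE 0.45). Hells, a chromatin remodeller, had a log2 fold of 1.87 (SE 0.37), Mcm4, another helicase subunit, 1.63 (SE 0.35), Rfc4, of the clamp loader, 1.59 (SE 0.33), and Lig1, the ligase of replication, 1.48 (SE 0.27). Adjusted p values of the named genes that passed, in edgeR's test, lay between 0.00130 and 0.0424. The mitotic transcription factor Foxm1 had a log2 fold of 2.04 (SE 0.71) and did not pass (adjusted p = 0.194 in edgeR's test). Cdkn1a had 379, 443, 454 and 835 CPM in wells with at least 5 members, against 435, 209, 409 and 450 in the others, so KO1 differed in direction from the other animals.

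**Figure D5:**
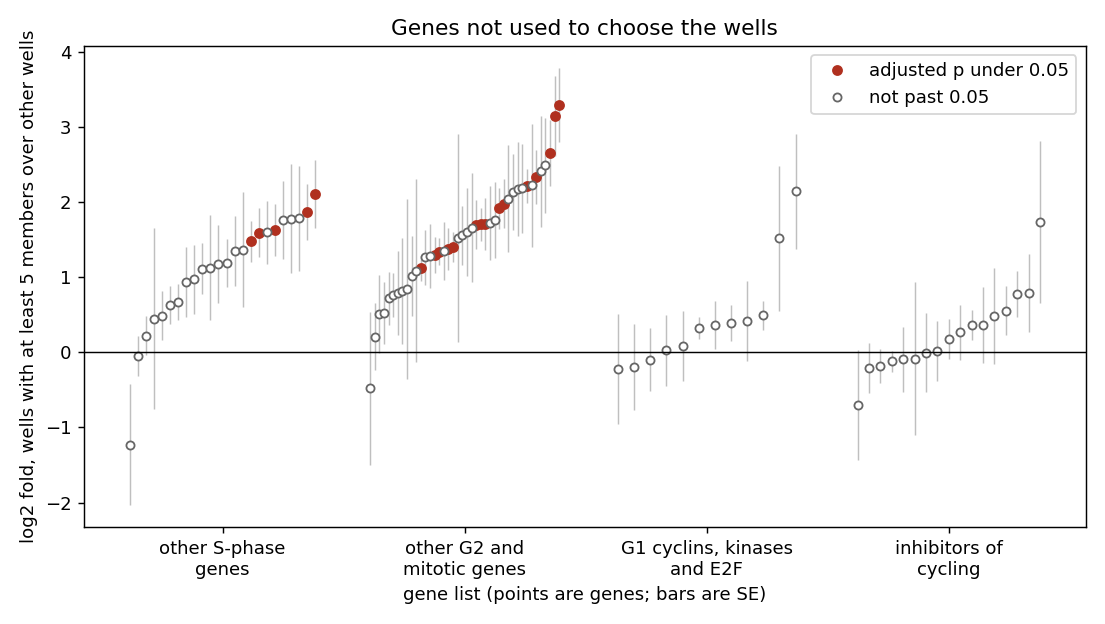
Each point is a gene of 1 of 4 lists, drawn at its log2 fold between wells with at least 5 members and other wells (vertical axis), with bars of 1 SE; filled points passed an adjusted p of 0.05. Filled points, 15 and 5 in number, lie only in the lists of other G2 and mitotic genes and other S-phase genes, and no point is filled among G1 genes (median 0.34) and inhibitors (median 0.18).

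Wells with at least 5 members were deeper, with a median of 84977.5 UMIs outside mt-, Hba- and Hbb- genes, against 34378.5 in the others. With the limit of 5 set on thinned wells, 40 of the related genes rose in place of 20, and with 12 or more members 37. In fibroblast-like wells alone 2 rose, in wells under 30% mitochondrial UMIs 1, in sums of thinned wells 8, and without KO1, KO2, WT1 or WT2 it was 12, 11, 9 or 10. Of the named genes that passed, Kif2c, Spc25 and Cdca8 passed without any 1 animal, while Mcm4 and Rfc4 lost the call whichever animal was left out.

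Several members share bases or sequence with other genes. Of the 33 members, 12 overlap an annotated gene on the opposite strand, and the strand setting of the counting is not given in the sources used here. Cdc20, with 5181 UMIs, overlaps Elovl1, with 28733. Pcna, with 32359 UMIs, has a near copy, Pcna-ps2, with 14873, and Ccnb1 and Ccnb2 have copies with 1452 and 389. Values of these genes are uncertain to that extent.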

How the data were processed

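Per the labels, polyadenylated RNA of single wells was sequenced after Nextera XT library preparation. The deposited values are UMI counts per gene and well: in all 4315 wells the sum over genes equalled the distinct gene-UMI pairs listed by the authors' per-well report, which also names each well's animal and fraction. The submitters' processing notes list Subread 1.4.6-p1, featureCounts, mm10 and STAR 2.5.2b. The sources used here do not give the annotation, the strand setting or the UMI rule. Of 29315 columns, 70 were spike-ins (4.98e-05% of UMIs, left out), and 28604 gene columns matched a symbol.

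Wells with under 10000 UMIs or 300 genes and control wells were left out. Wells were clustered with scanpy 1.11.5 under Python 3.11.15 (2000 variable genes, 30 components, 15 neighbours, Leiden resolution 1.5) without members, related, mitochondrial and haemoglobin genes. A class name needed 3 markers among the 30 leading genes at a log2 fold of at least 1, and either 2 among the first 10 or 5 among the 30. Resolution and naming rule were chosen after the clusters had been seen. Scrublet, run per chip, marked 33 wells, which were kept. For drawing, matplotlib 3.10.9 served.

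UMIs were summed per animal, the replicate, and tested over all genes with edgeR 4.0.16 in R 4.3.3 (quasi-likelihood, TMM, filterByExpr, Benjamini-Hochberg at 0.05), after a check on simulated data; DESeq2 1.42.0 was the other tool. The 2 animals of a genotype shared a chip, so p values measure the spread between animals on that chip. Log2 folds are KO over WT, NCM over CM, or wells with at least 5 members over the others. Members and lists were chosen with earlier results of these data known. Every member could be named; of the related lists, genes past the test were named (up to the 6 largest folds per list and direction), and Cdkn1a, Cdkn1b, Ccnd1, Ccnd2, Foxm1 and Cks2 always. Alternatives were library totals, no filter, thinned wells, wells under 30% mitochondrial UMIs, doublets left out, other member limits and leaving out each animal. The limit of 12 and both CM class comparisons were added after the data were seen.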

Additional observations from a re-analysis of the deposited data

How the results depend on the processing

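Among alternative values for named genes, 371 kept their direction and side of the threshold, 106 kept only the direction, 7 passed only in the alternative and 8 changed sign. For the remaining results, 164 values moved by less than the spread between animals or, for counts, by less than 1.5 times, and 38 moved further. The cause was not tested for any of them, except that fewer animals or wells enter some fits by construction.

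Members called between KO and WT in the NCM fraction were 1 with DESeq2, and within NCM classes 2 (fibroblast-like, DESeq2), 2 (macrophage-like, DESeq2) and 1 (macrophage-like, no low-count filter), in place of 0 with edgeR. Members called between NCM and CM were 6 with library totals, 0 in wells under 30% mitochondrial UMIs and 0 without any 1 animal (lowest 0, highest 0). Of the 67 related S-phase and mitotic genes, those higher in wells with at least 5 members were 20 in the report, 40 with DESeq2, 37 at 12 members, 9 at 12 members in fibroblast-like wells only, 40 with the limit set on thinned wells, 8 with thinned sums, 2 in fibroblast-like wells only, 1 under 30% mitochondrial UMIs and 9 to 12 with 1 animal left out.

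The mean share of wells past the limit was, at 3 members, 73.5% for KO and 70.9% for WT in NCM and 51.0% for KO and 50.8% for WT in CM; at 8 members, 16.6% for KO and 18.4% for WT in NCM and 9.47% for KO and 12.5% for WT in CM; and at 5 members in wells under 30% mitochondrial UMIs, 87.5% for KO in NCM and 48.5% for KO and 35.6% for WT in CM. With all UMIs as the base, S-phase sums averaged 265 per 1000000 UMIs in KO NCM, against 352 in WT NCM, which turns the direction of that difference, and mitotic sums 450 in KO NCM and 332 in WT CM. In wells under 30% mitochondrial UMIs the S-phase sum was 788 CPM in KO NCM, and the mitotic sums 1238 in KO NCM and 697 in WT CM. That limit left 18 and 160 NCM wells of KO1 and KO2, against 645 and 570 of WT1 and WT2. It left 38 and 63 CM wells of KO1 and KO2, against 84 and 121 of WT1 and WT2.

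Signs turned for Mki67 between genotypes in cardiomyocyte-like CM wells (-1.99 under 30% mitochondrial UMIs) and for genes in wells with at least 5 members: Ccnd1 (-0.22 at 12 members in fibroblast-like wells and -0.023 in fibroblast-like wells only), Ccnd2 (-0.22), Cdkn1a (-0.89) and Cdkn1b (-0.86), each with the limit set on thinned wells, and Cdkn1b (-1.05 at 12 members and -1.28 at 12 in fibroblast-like wells). No paired analysis was possible because the replicate numbers follow accession order and the chips of both genotypes hold different animals; comparisons within animals already hold the animal as a block. With 2 animals a genotype and 1 chip per genotype and fraction, chip moves with genotype and limits every genotype value. Depth outside mitochondrial and haemoglobin genes and mitochondrial share also move with genotype in NCM, while in CM the genotypes overlap in both.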
